A study of Homo sapiens with 6 samples.

Results

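The genes described here encode the enzymes and transporters of glycolysis, the pentose phosphate pathway, and the oxygen-sensing system with a few of its targets. They were chosen by symbol: 35 genes were named and all 35 are among the 16315 genes of the count table. Each of the 35 also passed the filter on low values (CPM, counts scaled to the library size, at a mean of 1 or more over the 6 libraries), which left 13841 genes for testing. Glycolysis splits glucose into pyruvate and yields ATP without oxygen, lactate dehydrogenase and the monocarboxylate transporters dispose of the product, and the pentose phosphate pathway diverts glucose carbon to NADPH and ribose. Mature red cells, which have no mitochondria, depend heavily on these routes. When oxygen falls, prolyl hydroxylases such as EGLN1 lose activity, HIF1A protein is spared from VHL-directed breakdown, and HIF1A pairs with ARNT to bind target genes, many of them glycolytic. That control acts on HIF1A protein, which messenger RNA counts do not measure.

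The data were bulk messenger RNA counts from F36P, a human cytokine-dependent leukaemia line used as a model of erythroid differentiation. In 3 libraries the cells carried a guide RNA against the histone deacetylase HDAC7 (sgHDAC7, genotype HDAC7 knockout), and in 3 a non-targeting guide (sgNT, genotype WT). All cells, controls included, had been transduced with a puromycin-resistance plasmid and kept for 4 days in 1 µg/ml puromycin. The study asked how HDAC7 bears on erythroid differentiation. The labels call the libraries biological replicates but name no separate cultures, so p-values measure the spread between these libraries. They do not say whether the sgHDAC7 cells were a pool or a clone.

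Library totals ran from 10039693 to 12521195 counts, so that 3 counts in a library equal 0.24 to 0.299 CPM, which covers counting error only. HDAC7 itself was at 194, 239 and 246 CPM in sgHDAC7 and at 449.85, 460.4 and 462 in sgNT (49.5% of sgNT, adjusted p = 0.00139, edgeR's quasi-likelihood test). All 12 erythroid and progenitor markers examined were in the table, among them GATA1 at 198 to 246 CPM, but KIT did not exceed 4.85. None of the 3 T cell markers was in the table, epithelial markers stayed at or below 1.97 CPM, and of the monocyte markers LYZ alone was present, at 77.5 to 105. Of the B cell markers CD79A was at 12.3 to 18.7 CPM and MS4A1 was not in the table. Of the fibroblast markers COL1A1 alone was present, at or below 2.75. Replicate 1 of each guide stood apart: the chi-square per degree of freedom between libraries of one guide was 3.06 and 3.318 between replicates 2 and 3, and 7.2 to 14.1 with replicate 1. Results are therefore given from the fit with guide as the single term, from a fit with a further term for replicate 1, and from replicates 2 and 3 alone. The replicate 1 term is a single shift shared by both guides, and does not describe a shift of replicate 1 under one guide only.

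Most of the 35 genes were close to equal under the 2 guides. VEGFA, the angiogenic growth factor that is a textbook hypoxia target, was 2.89-fold lower in sgHDAC7, and PFKM, the muscle-type phosphofructokinase, was 1.33-fold lower. No other member passed the adjusted threshold of 0.05, and none passed in the upward direction. The 2 calls are 5.71% of the members, beside 2.86% of all genes tested (1.16% higher and 1.70% lower). For higher calls edgeR gave 0, DESeq2 0 and limma-trend 0, and 2 members (PFKL and TALDO1) had an unadjusted p under 0.05. The median log2 fold change was -0.004 over the members and -0.0016 over all genes tested, with 16 members above 0 and 19 below. The 33 members that were not called lay between -0.25 and 0.27. In 32 of the 35 the 95% interval lay within 1.5-fold either way, which is 91.4% of the members, beside 62.7% of all genes tested.

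With the replicate 1 term, 5 members passed: PFKL and TALDO1 higher, and VEGFA, PFKM and PKM lower. That is 14.3% of the members, beside 12.6% of all genes (5.78% higher and 6.81% lower). In replicates 2 and 3 alone 7 members passed, a share of 20%, beside 20.6% of all genes. GAPDH and PGD joined the 5, GAPDH higher and PGD lower. In 9 members the 3 libraries of one guide lay wholly above or below those of the other, which is 25.7%, beside 25.1% of all genes. These were VEGFA, PFKM, HK2 and PGD on the lower side and PFKL, TALDO1, ALDOA, PGLS and BNIP3 on the higher side. In the last 3 of these counts the members' share was near that of the whole table.

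**Figure D1:**
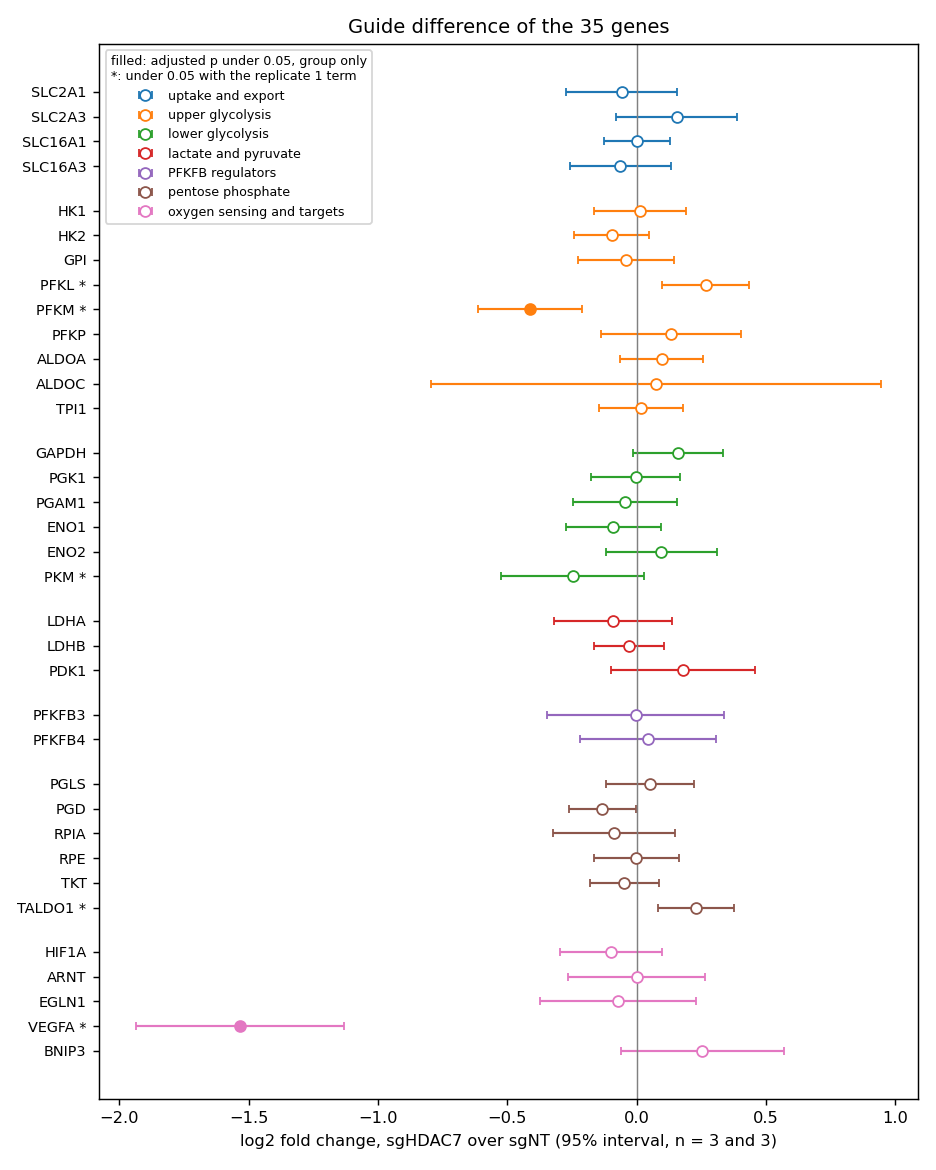
The plot shows the log2 fold change of each of the 35 genes, sgHDAC7 over sgNT, with its 95% interval (3 libraries each), coloured by role. VEGFA at -1.53 and PFKM at -0.41 are the filled points that passed with guide as the single term, stars mark the 5 genes that passed with the replicate 1 term, and the other 33 points lie between -0.25 and 0.27.

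Promoter windows (RefSeq, GRCh38.p14, 250 bases before to 50 after a transcription start) were found for 32 of the 35 genes, in 59 windows. SLC2A3, SLC16A1 and VEGFA were not matched. The core of the hypoxia response element, ACGTG or GCGTG on either strand, occurred in 36 of the 59 windows (61.0%) and in 48.4% of all 35116 windows. The member windows were also richer in G and C, with a median of 68.7% against 58.7%. The E-box CACGTG, which contains ACGTG on each strand, occurred in 11.9% of the member windows and 7.26% of all windows, and the ATF4 element TGATGNAA in 3.39% and 3.62%. Shown are the 250 bases before the start for the 3 windows with the most core matches (6 each in the full window, of which 5 lie in the printed stretch of LDHA), and for the 3 genes with a single window that passed with the replicate 1 term. Capitals mark ACGTG or GCGTG read on either strand. Each CACGTG was counted once per strand, so these 3 windows show fewer marked stretches than matches. The choice of the windows with the most matches rests on that way of counting.
BNIP3 (chr10:131981924-131982173, - strand): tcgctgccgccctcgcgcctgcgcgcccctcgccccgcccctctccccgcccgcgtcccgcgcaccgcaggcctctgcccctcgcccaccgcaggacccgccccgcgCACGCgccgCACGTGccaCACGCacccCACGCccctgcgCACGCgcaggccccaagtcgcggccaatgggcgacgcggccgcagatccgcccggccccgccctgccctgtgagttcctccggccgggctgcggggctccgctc
HK2 (chr2:74834920-74835169, + strand): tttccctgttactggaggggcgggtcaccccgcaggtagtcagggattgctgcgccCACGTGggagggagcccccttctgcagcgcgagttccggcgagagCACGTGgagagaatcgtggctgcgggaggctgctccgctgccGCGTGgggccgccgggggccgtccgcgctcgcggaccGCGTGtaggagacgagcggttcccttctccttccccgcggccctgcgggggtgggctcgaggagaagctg
LDHA (chr11:18394313-18394562, + strand): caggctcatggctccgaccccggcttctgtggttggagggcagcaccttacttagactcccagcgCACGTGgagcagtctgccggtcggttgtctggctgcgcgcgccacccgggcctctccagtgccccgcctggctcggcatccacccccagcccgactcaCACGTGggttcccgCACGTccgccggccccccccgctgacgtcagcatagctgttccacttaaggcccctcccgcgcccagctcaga
PFKL (chr21:44299803-44300052, + strand): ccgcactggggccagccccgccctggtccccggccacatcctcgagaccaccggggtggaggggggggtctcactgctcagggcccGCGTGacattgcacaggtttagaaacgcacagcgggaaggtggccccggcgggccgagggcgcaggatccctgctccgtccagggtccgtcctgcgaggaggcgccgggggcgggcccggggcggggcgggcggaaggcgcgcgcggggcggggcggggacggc
PKM (chr15:72231191-72231440, - strand): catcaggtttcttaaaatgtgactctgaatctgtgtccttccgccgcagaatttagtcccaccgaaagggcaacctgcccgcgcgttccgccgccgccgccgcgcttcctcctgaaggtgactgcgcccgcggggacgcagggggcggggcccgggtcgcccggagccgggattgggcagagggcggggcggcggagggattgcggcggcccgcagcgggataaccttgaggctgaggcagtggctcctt
TALDO1 (chr11:747214-747463, + strand): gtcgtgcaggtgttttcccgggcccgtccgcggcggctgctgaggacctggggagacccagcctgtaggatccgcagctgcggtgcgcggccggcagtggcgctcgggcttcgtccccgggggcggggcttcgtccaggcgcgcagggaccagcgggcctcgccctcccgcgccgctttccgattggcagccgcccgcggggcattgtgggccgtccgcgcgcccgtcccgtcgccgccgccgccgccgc
The core-rich windows of BNIP3, HK2 and LDHA belong to genes that did not pass in any of the 3 fits. TALDO1 and PFKL, higher with the replicate 1 term, had 0 and 1 core matches in the full window. The match of PKM, 1 in all, lies after the start and is not in the printed stretch. Of the genes called with guide alone, VEGFA had no window, and PFKM had several, some of them with a match. A match is a run of letters and not a measured binding site, and its part in these differences was not tested.

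The difference was largest in VEGFA (ENSG00000112715.21, chromosome 6, 43770184 to 43786487 on GRCh38). Its level was 30.8, 28.1 and 29.6 CPM in sgHDAC7 replicates 1, 2 and 3, and 58.9, 99.8 and 97.4 in sgNT. The sgHDAC7 libraries lay close together, all sgNT libraries were higher, and sgNT replicate 1 stood well below the other sgNT libraries. The means were 29.5 ± 1.40 (SD, n = 3) and 85.4 ± 22.9 (SD, n = 3). The log2 fold change was -1.53 ± 0.18 (SE), with an edgeR adjusted p of 0.00453. Within replicate 1 the log2 ratio was -0.92, and in replicates 2 and 3 it was -1.76. With the replicate 1 term the fold change was -1.50 (edgeR adjusted p = 3.43e-05). Replicate 1 minus replicates 2 and 3 was, on the log2 scale, -0.74 in sgNT and 0.10 in sgHDAC7. A shift shared by both guides does not describe these values, so that p does not account for sgNT replicate 1. The call was lost when sgHDAC7 replicate 2 or 3 was left out (edgeR adjusted p = 0.0599 and 0.0537). In bulk RNA, fewer cells that express a gene and less RNA per cell cannot be told apart.

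VEGFA is also induced by the stress factor ATF4, and 13 ATF4-linked genes, a list known from earlier results of these data to have moved, are given beside it. Of the 13, 9 were lower and 0 higher with guide as the single term (69.2%, beside 2.86% of all genes), and the median log2 fold change was -2.03. Because the list was picked with its movement known, that share follows from the choice and is not a test. Of the 9, DESeq2 called 9 and limma-trend 3, and 8 were called in 1 of the 6 fits that left out a library, the one without sgNT replicate 1. The median was -0.33 within replicate 1 and -2.56 in replicates 2 and 3. Within replicate 1, 11 of the 13 were lower in sgHDAC7 and 2, ASNS and PHGDH, were higher. SLC7A11, the cystine transporter, was at 27.2, 23.0 and 21.6 CPM in sgHDAC7 and at 50.1, 134 and 135 in sgNT (log2 fold change -2.15 ± 0.32 SE, edgeR adjusted p = 0.0139). CHAC1, which degrades glutathione, stood at 3.78, 3.37 and 2.99 CPM against 8.005, 66.3 and 63.9 (-3.77 ± 0.67 SE, edgeR adjusted p = 0.0249). The SLC7A11 call was lost without any one library other than replicate 1 of either guide (edgeR adjusted p = 0.0667 to 0.11), and the CHAC1 call without any one other than sgNT replicate 1 (0.0617 to 0.156). In both genes, as in VEGFA, sgNT replicate 1 was the lowest of the sgNT libraries. The part of these genes in the VEGFA result was not tested.

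The other genes of oxygen sensing showed no called difference. HIF1A, the oxygen-labile subunit, was at 49.8 ± 3.00 CPM (SD, n = 3) in sgHDAC7 and 53.3 ± 3.93 (SD, n = 3) in sgNT, and the 95% interval of its log2 fold change ran from -0.29 to 0.10. ARNT, its stable partner, was at 73.9 in both groups (SD 6.70 and 11.3). EGLN1, the main oxygen-dependent hydroxylase, was at 25.9 ± 2.54 against 27.2 ± 4.23 (SD, n = 3 each). BNIP3, a mitophagy receptor and hypoxia target, was at 11.8, 11.4 and 10.8 CPM in sgHDAC7 and at 9.88, 10.1 and 8.55 in sgNT. All 3 sgHDAC7 libraries were the higher, but the log2 fold change of 0.25 ± 0.14 (SE) did not pass (edgeR adjusted p = 0.361). VEGFA and BNIP3 are both hypoxia targets by textbook. The 95% interval of the BNIP3 log2 fold change ran from -0.06 to 0.57, so its direction was not settled.

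Phosphofructokinase commits glucose to glycolysis and is built from muscle (PFKM), liver (PFKL) and platelet (PFKP) subunits. PFKM (ENSG00000152556.16, chromosome 12, 48105139 to 48146404) was at 49.2, 48.9 and 41.4 CPM in sgHDAC7 and at 61.2, 64.5 and 59.8 in sgNT. All sgHDAC7 libraries were below all sgNT libraries, and replicate 1 did not stand apart here. The log2 fold change was -0.41 ± 0.09 (SE, edgeR adjusted p = 0.0452, or 0.00745 once replicate 1 had its own term). This call stood at the threshold: it was lost without any one library other than sgNT replicate 1 (edgeR adjusted p = 0.0652 to 0.171) and without the filter on low values. HDAC7, the target of the guide, lies near PFKM on chromosome 12, at 47782722 to 47833132. The part of this nearness in the PFKM difference was not tested. PFKL (ENSG00000141959.16, chromosome 21, 44300051 to 44327376) was at 195, 171 and 175 CPM in sgHDAC7 and at 159, 143 and 148 in sgNT. Here every sgHDAC7 library was the higher. The log2 fold change was 0.27 ± 0.07 (SE), with an edgeR adjusted p of 0.0903 with guide alone and 0.00711 with the replicate 1 term. PFKP was at 112 ± 16.3 CPM against 102 ± 13.5 (SD, n = 3 each), and its groups overlapped.

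The balance between the subunits was compared within each library, where no scaling between libraries enters. The PFKM to PFKL count ratio was 0.252, 0.286 and 0.237 in sgHDAC7 and 0.384, 0.452 and 0.404 in sgNT, so every sgHDAC7 library was lower. The ratio was 0.624 times that in sgNT, with -0.61 on the log2 scale in replicate 1 and -0.72 in replicates 2 and 3. The exact two-sided permutation p was 0.1, the smallest that 3 against 3 libraries can give, and 0.5 after Benjamini-Hochberg adjustment over the 10 isozyme pairs compared. Per kilobase of the principal transcript, PFKM made up 12.2% ± 0.90 of the phosphofructokinase messages in sgHDAC7 and 17.7% ± 1.65 in sgNT (SD, n = 3 each). PFKL made up 52.4% ± 2.08 and 47.3% ± 0.68. Per kilobase of all exons the PFKM shares were 12.8% and 18.3%, while PFKL fell behind PFKP, so the order of PFKL and PFKP depends on the length used.

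**Figure D2:**
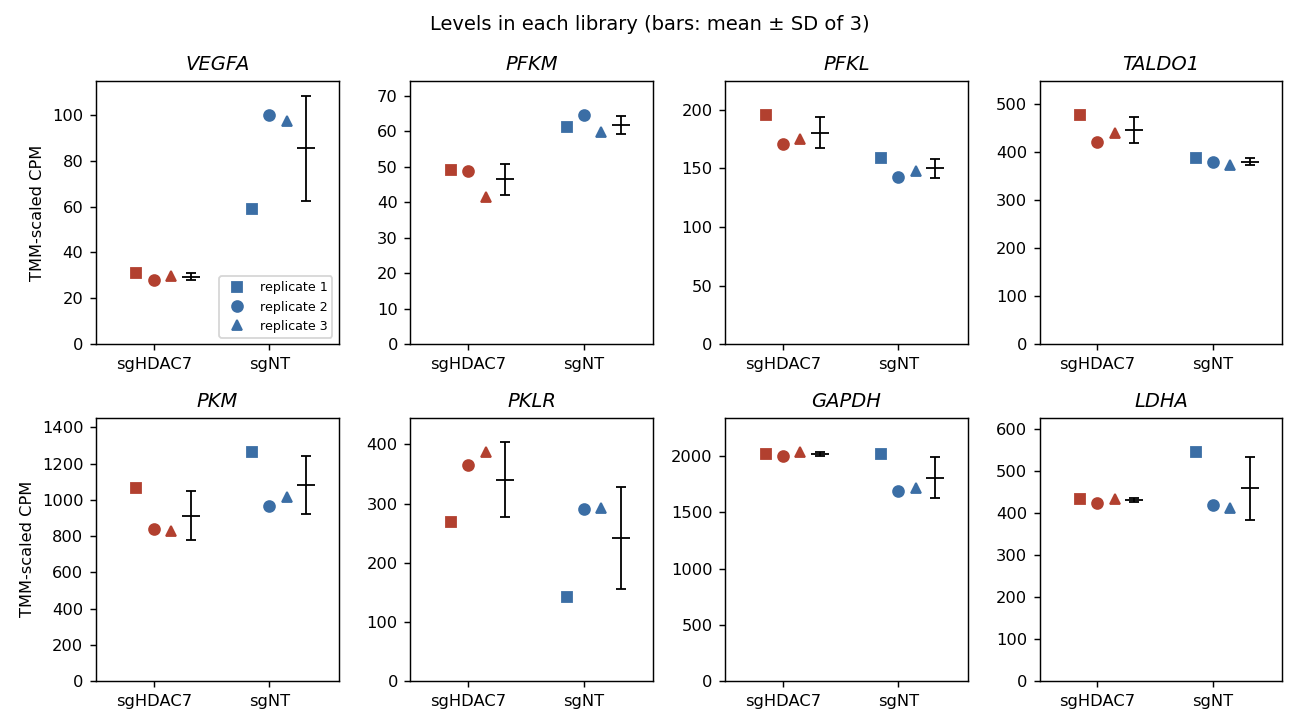
Each panel plots 1 gene's TMM-scaled CPM (vertical axis, from 0) in the 3 sgHDAC7 and 3 sgNT libraries, with the symbol giving the replicate number and the bar the mean ± SD. VEGFA and PFKM are lower and PFKL and TALDO1 higher in every sgHDAC7 library, while sgNT replicate 1 is the highest library for PKM and LDHA and the lowest for PKLR.

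The remaining enzymes of upper glycolysis did not pass in any of the 3 fits. HK1, the hexokinase of most cells, was at 789 ± 53.8 CPM in sgHDAC7 and 782 ± 63.0 in sgNT (SD, n = 3 each), and HK2, its inducible relative, at 108 ± 2.48 and 115 ± 5.15. Per kilobase of principal transcript HK1 made up 92.1% and 91.6% of the pair, and the HK2 to HK1 ratio had an exact permutation p of 0.3. GPI, which turns glucose phosphate into fructose phosphate, was at 369 ± 11.2 against 379.6 ± 43.3. TPI1, which interconverts the triose phosphates, was at 335 ± 5.82 against 331 ± 28.8. ALDOA, the common aldolase, was at 62.2, 64.6 and 64.5 CPM against 60.7, 57.2 and 60.997, a difference of 0.10 ± 0.07 (SE) on the log2 scale without overlap. Of ALDOA's exon bases, 42.3% are shared with another gene on the same strand in GENCODE 29, so its reads could have been split by the counting. ALDOC, the brain-type aldolase, was barely present at 1.30 ± 0.44 against 1.23 ± 0.32 CPM, and its interval of -0.80 to 0.95 allows nearly any difference within 2-fold.

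Enzymes of lower glycolysis and lactate dehydrogenase gave the most abundant messages of the set. Per kilobase of principal transcript, GAPDH stood first (965 ± 99.1 CPM per kilobase in sgNT, SD, n = 3), followed by ENO1 (755 ± 85.1) and LDHB (618 ± 24.9). Each mean exceeded the next by more than their SDs together. Per kilobase of all exons the order was the same, but ENO1 (335) and LDHB (319) differed by less than their SDs. GAPDH, the dehydrogenase that first yields NADH, was at 2019, 2006 and 2037 CPM in sgHDAC7 and at 2023.5, 1689 and 1716 in sgNT. The sgNT replicate 1 value matched the sgHDAC7 level and the other 2 sgNT libraries were lower. The log2 fold change was 0.16 ± 0.08 (SE, edgeR adjusted p = 0.299), and 0.25 in replicates 2 and 3 alone (edgeR adjusted p = 0.000895).

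PKM, the pyruvate kinase of most tissues, was at 1068, 837 and 829.8 CPM in sgHDAC7 and at 1264, 966 and 1016 in sgNT. Replicate 1 was the highest of each guide, so the groups overlapped. Within replicate 1 the log2 ratio was -0.24 and in replicates 2 and 3 it was -0.25. The fit with guide alone gave -0.25 ± 0.12 (SE, edgeR adjusted p = 0.312), and the fit with the replicate 1 term -0.25 (edgeR adjusted p = 0.00748). PGK1, the ATP-yielding kinase, was at 455 ± 4.79 against 457 ± 45.8 CPM, PGAM1, the mutase, at 149 ± 8.78 against 153 ± 17.6, and ENO1, the common enolase, at 1663 ± 32.9 against 1770 ± 200 (SD, n = 3 each). ENO2, the neuronal enolase, was at 39.0 ± 3.15 against 36.5 ± 2.20. None of these 4 passed in any of the 3 fits. GAPDH, PGK1, PGAM1, ENO1, TPI1, LDHA and LDHB have processed pseudogenes, to which the authors' counting may have assigned some of their reads.

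The pyruvate kinase pair was looked at after its values were seen, because PKLR, the isozyme of liver and red cells, is not among the 35. PKLR was at 269, 366 and 387 CPM in sgHDAC7 and at 142, 290.2 and 293 in sgNT (log2 fold change 0.49 ± 0.24 SE, edgeR adjusted p = 0.306). With the replicate 1 term it was 0.55 (edgeR adjusted p = 0.00229). The PKLR to PKM count ratio was 0.252, 0.437 and 0.467 in sgHDAC7 and 0.112, 0.301 and 0.288 in sgNT. Replicate 1 had the lowest ratio of each guide, and within each replicate number the sgHDAC7 library had the higher one. The fetal globins HBG1 and HBG2 summed to 10094, 11867 and 14698 CPM in sgHDAC7 and to 6699, 10305 and 9992 in sgNT. The other 10 erythroid and progenitor markers summed to 4426, 4931 and 4768 CPM, and to 3733, 4471 and 4418. Most of that sum was TFRC, at 2719, 2978 and 2804 CPM in sgHDAC7 and 2223, 2606 and 2546 in sgNT. The sum therefore does not show how each of the 10 moved. Both sums were lowest in replicate 1 of each guide and higher in the sgHDAC7 library of each replicate number. The replicate numbers were not taken as pairs, however, and across all libraries the guides overlapped in the ratio and in both sums. The part of the globins and the other markers in the ratio was not tested.

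**Figure D3:**
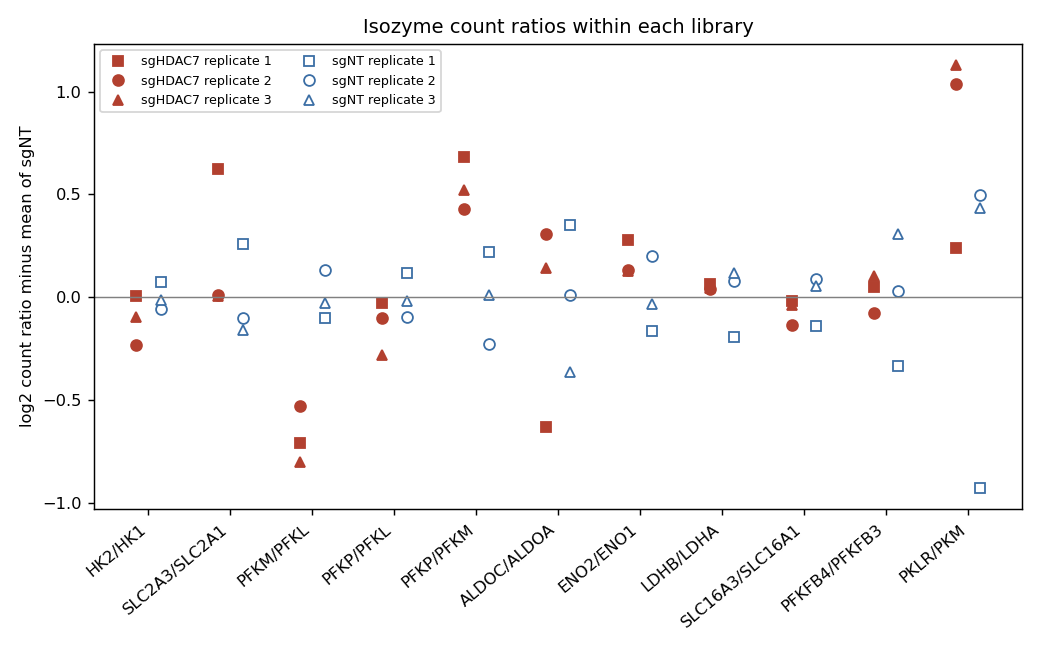
Points give the log2 ratio of the counts of 2 isozymes in each library, minus the sgNT mean of that pair, with filled red symbols for sgHDAC7 and open blue ones for sgNT. PFKM/PFKL lies lower and PFKP/PFKM higher in all sgHDAC7 libraries, the other 8 tested pairs overlap, and PKLR/PKM was added after its values were seen.

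Lactate metabolism showed no called difference. LDHA, the dehydrogenase subunit that favours lactate formation, was at 434, 425 and 433 CPM in sgHDAC7 and at 546, 419.8 and 412 in sgNT. The libraries were alike apart from sgNT replicate 1, which was the highest, and the interval of the log2 fold change was -0.32 to 0.14. LDHB, the subunit common in heart, was the more abundant at 932 ± 18.4 against 951 ± 38.2 CPM (SD, n = 3 each), and 33.4% of its exon bases are shared with another gene on the same strand. Per kilobase of principal transcript LDHB made up 77.3% ± 0.17 of the pair in sgHDAC7 and 76.6% ± 2.16 in sgNT. PDK1, a kinase that inhibits pyruvate dehydrogenase, was at 28.3, 25.8 and 25.4 CPM against 25.8, 24.6 and 19.9. Its difference was the largest of this role, at 0.18 ± 0.12 on the log2 scale (SE, edgeR adjusted p = 0.474), and the groups overlapped.

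Transporters also overlapped between guides. SLC2A1 (GLUT1), the main glucose carrier of erythroid cells, was at 237 ± 28.7 CPM in sgHDAC7 and 247 ± 18.2 in sgNT (SD, n = 3 each). SLC2A3 (GLUT3), a high-affinity carrier, was at 93.1, 77.2 and 73.2 CPM against 79.95, 69.8 and 68.8, with replicate 1 the highest of each guide. Its log2 fold change was 0.16 ± 0.10 (SE, edgeR adjusted p = 0.456). SLC16A1 (MCT1), which moves lactate and pyruvate, was at 343 ± 7.46 against 342 ± 7.10, and its interval of -0.13 to 0.13 was the narrowest of the 35. SLC16A3 (MCT4), the lactate exporter of glycolytic cells, was at 61.8 ± 3.94 against 64.6 ± 5.04. The regulators PFKFB3 and PFKFB4 set the level of fructose 2,6-bisphosphate, the activator of phosphofructokinase. PFKFB4 was at 47.4, 35.7 and 41.6 CPM against 40.9, 36.8 and 43.3, without any separation, and PFKFB3 at 42.7 ± 4.66 against 42.9 ± 9.83 (SD, n = 3 each).

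In the pentose phosphate pathway the non-oxidative enzyme TALDO1, which passes carbon back to glycolysis, showed the largest difference. TALDO1 (ENSG00000177156.10, chromosome 11, 747329 to 765024) was at 476, 421 and 439.65 CPM in sgHDAC7 and at 388, 379 and 372 in sgNT, with every sgHDAC7 library above every sgNT library. The log2 fold change was 0.23 ± 0.07 (SE), with an edgeR adjusted p of 0.0936 with guide alone and 0.0144 with the replicate 1 term. PGD, which makes NADPH in the oxidative branch, was at 355, 353 and 333 CPM against 380.3, 376 and 384. It was lower in all 3, by a small step of -0.13 ± 0.06 on the log2 scale (SE, edgeR adjusted p = 0.255, and 0.0481 in replicates 2 and 3 alone). TKT, the transketolase that works with TALDO1, was at 468 ± 11.7 against 483 ± 15.8 CPM. PGLS, the lactonase of the oxidative branch, was at 44.2 ± 0.77 against 42.6 ± 0.38. RPIA, the ribose phosphate isomerase, was at 77.2 ± 0.99 against 82.0 ± 13.1, and RPE, the epimerase, at 63.8 ± 3.11 against 63.9 ± 1.43 (SD, n = 3 each). The 6 genes summed to 1489, 1423 and 1417 CPM in sgHDAC7 and to 1463, 1400.1 and 1426 in sgNT, which overlap.

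Glycolytic messages also differed between replicates of the control. In sgNT replicate 1, 11 of the 35 members had their highest value of all 6 libraries (31.4%, beside 22.0% of all genes tested), among them 4 of the 6 genes of lower glycolysis. The median of sgNT replicate 1 minus sgNT replicates 2 and 3 was 0.26 on the log2 scale for lower glycolysis and 0.01 over all genes. The 17 enzymes from hexokinase to pyruvate kinase, with lactate dehydrogenase, took 0.879%, 0.843% and 0.840% of the counts in sgHDAC7 and 0.963%, 0.816% and 0.844% in sgNT. The sgNT libraries thus held both the highest and the lowest share. The median log2 ratio of sgHDAC7 over sgNT for lower glycolysis was -0.15 in replicate 1 and 0.02 in replicates 2 and 3.

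**Figure D4:**
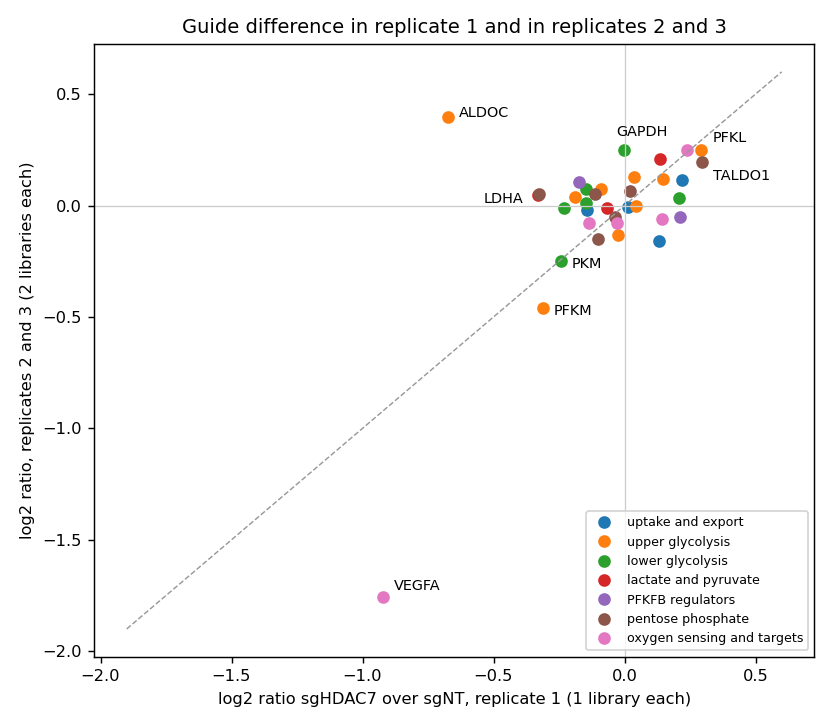
Each point is 1 of the 35 genes, with the log2 ratio of sgHDAC7 over sgNT in replicate 1 on the horizontal axis and that in replicates 2 and 3 on the vertical axis, and the dashed line marks equal values. VEGFA lies at -0.92 and -1.76, PKM on the line at -0.24 and -0.25, GAPDH at 0.00 and 0.25, ALDOC, which has few counts, at -0.67 and 0.40, and LDHA is covered by RPIA.

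Neighbouring genes of the same pathways were counted from 5 further lists. Of 21 tested glycolysis neighbours 0 were called by edgeR, and 3 were higher and 3 lower with the replicate 1 term (28.6%, beside 12.6% of all genes). The largest difference among them was in TXNIP, which restrains glucose uptake, at 118, 152 and 146 CPM in sgHDAC7 and 159.5, 278 and 270.4 in sgNT. All sgHDAC7 libraries were the lower (log2 fold change -0.77 ± 0.19 SE, edgeR adjusted p = 0.0617, or 0.000145 once replicate 1 had its own term). Of 13 genes of pyruvate entry into mitochondria and its use there 0 were called with guide alone or with the replicate 1 term. In replicates 2 and 3 alone 1 was higher and 3 lower (30.8%, beside 20.6% of all genes). PDP1, a pyruvate dehydrogenase phosphatase, had the largest difference with guide alone at 0.36 ± 0.21 (SE, log2). Of 8 pentose phosphate neighbours 0 were called with guide alone. SHPK, the kinase of sedoheptulose, was at 19.2, 21.7 and 18.9 CPM against 13.7, 13.2 and 16.1 (log2 fold change 0.48 ± 0.13 SE, edgeR adjusted p = 0.0823, or 0.0235 once replicate 1 had its own term).

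Of 14 further oxygen-sensing genes 0 were called with guide alone. EGLN2, another HIF hydroxylase, had the largest difference at -0.66 ± 0.30 (SE, log2) from a level of 1.81 to 5.42 CPM. With the replicate 1 term 1 of the 14 was higher and 0 lower. In replicates 2 and 3 alone 1 was higher and 3 lower (28.6%, beside 20.6% of all genes). Of 28 further hypoxia targets 3 were lower and 0 higher (10.7%, beside 2.86% of all genes), and the median log2 fold change was -0.03. The 3 were DDIT4, an inhibitor of mTORC1, at -3.19 ± 0.60 (SE, edgeR adjusted p = 0.0287), VLDLR, a lipoprotein receptor, at -2.79 ± 0.53 (SE, edgeR adjusted p = 0.0293) and BNIP3L, the mitophagy receptor of maturing red cells, at -0.41 ± 0.09 (SE, edgeR adjusted p = 0.0423). DDIT4 was at 57.3, 64.8 and 66.2 CPM in sgHDAC7 and at 104, 802 and 812 in sgNT, so that sgNT replicate 1 was again far below the other sgNT libraries. All 3 calls were lost without any one library other than sgNT replicate 1, with edgeR adjusted p of 0.0775 to 0.167 for DDIT4, 0.0645 to 0.167 for VLDLR and 0.0879 to 0.19 for BNIP3L. Limma-trend called 2 of the 3, missing DDIT4 (adjusted p = 0.0591). BNIP3L was at 146, 145 and 149 CPM against 168, 206 and 210.5. DDIT4 and VLDLR are also on the ATF4 list, which was picked with its movement known. The share of 10.7% rests in part on that choice and is not a test. With the replicate 1 term 2 of the 28 were higher and 7 lower, which is 32.1%, beside 12.6% of all genes. That share includes DDIT4 and VLDLR too, and is likewise not a test.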

How the data were processed

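Poly-T-captured messenger RNA was sequenced in 6 F36P libraries, 3 per guide, per the labels' protocols. The table deposited by the authors is named CPM, but 100% of its values are whole and the column totals differ, so they were used as unscaled counts per gene. Genome build hg38 and edgeR 3.32.1 are given without a role, per the submitters' processing notes. For the aligner, the counting tool and strandedness, nothing is given in the sources used here. All 16315 genes exceed 0.5 CPM in at least 2 libraries. Columns named NC were taken as sgNT, the single group without HDAC7 in its name.

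Counts were tested with edgeR 4.0.16 (R 4.3.3, quasi-likelihood, TMM scaling, guide as the single term) on the 13841 genes whose mean CPM reached 1, two-sided, with Benjamini-Hochberg adjustment over all of them and a threshold of 0.05. CPM in the text is TMM-scaled. Standard errors were obtained by dividing the log2 fold change by the root of the F statistic. Alternatives were other scalings and filters, DESeq2 1.42.0, limma-trend 3.58.1 on log2(CPM + 0.5), a replicate block, a replicate 1 term, replicates 2 and 3 alone, and leaving out each library. Isozyme ratios used log2(count + 0.5) and an exact permutation test. Lengths and overlaps come from GENCODE 29 on GRCh38, with the longest APPRIS principal transcript and, as a second length, all exons. On simulated counts for this comparison and 13841 genes, 53.3% of planted 1.5-fold changes and 80.7% of planted 2-fold changes were recovered, with 8.01% false calls. With the replicate 1 term these rates were 53.7%, 81% and 9.21%. The simulated counts held no shift of replicate 1, so these rates cannot tell how the fits compare on the real libraries.

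The members, lists and tests were chosen with earlier results of these data known. All 35 members are named, and values in every library are given for members called with or without the replicate 1 term and for the largest difference in each role, with some others added for description. From each further list up to 4 called genes, or else the gene with the largest difference, are named.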

Additional observations from a re-analysis of the deposited data

How the results depend on the processing

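The number of genes called, 396, was 718 with DESeq2, 998 with the replicate block, 1743 with the replicate 1 term and 2847 in replicates 2 and 3 alone, and ran from 27 to 1588 when 1 library was left out. It was 27 without sgHDAC7 replicate 2, 31 without sgHDAC7 replicate 3, 47 and 50 without sgNT replicates 2 and 3, and 1588 without sgNT replicate 1. Members called higher, 0 with guide alone, numbered 2 with the replicate block, 2 with the replicate 1 term, 3 in replicates 2 and 3 alone and 0 to 3 with 1 library left out, the 3 without sgNT replicate 1. Members called lower, 2 with guide alone, numbered 1 without the filter on low values, 4 in replicates 2 and 3 alone and 0 to 2 with 1 library left out, with 0 without sgHDAC7 replicate 2 or 3. The replicate block gave 3 lower members. The other scalings, the filter at 5 CPM, DESeq2 and limma-trend gave 0 higher and 2 lower. The cause was not tested. Replicates 2 and 3 alone gave more calls although that fit holds fewer libraries.

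The replicate numbers were not taken as pairs: libraries with the same number deviated from their group means with correlations of 0.303, 0.107 and 0.0968 over 13841 genes, and replicates 2 and 3 correlated better with each other's number (0.159 and 0.155) than with their own. The replicate block and the replicate 1 term, run as alternatives, do tie libraries of the same number together. No called member changed sign under any of the alternatives. The sign turned for 17 members that were called in none of the fits where it turned, the largest of them at 0.091 on the log2 scale, and 18 kept it. Depth limits ALDOC most, with 10 counts in its lowest library, followed by BNIP3 with 90.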

Other observations

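CITED2, which competes with HIF1A for its coactivators and was picked after its values were seen, was at 237, 205 and 215 CPM in sgHDAC7 and at 149, 183 and 182 in sgNT. Every sgHDAC7 library was the higher, and the log2 fold change was 0.35 ± 0.09 (SE, edgeR adjusted p = 0.0772, or 0.0143 once replicate 1 had its own term). DESeq2 gave an adjusted p of 0.0243 and limma-trend 0.0764. The log2 ratio was 0.67 within replicate 1 and 0.20 in replicates 2 and 3.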
